A study of Mus musculus with 24 samples.

Results

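The last day of the series, from embryonic day 12 (E12) to embryonic day 13 (E13), was followed here in mandibular prominences of mouse embryos that carried the mutant p63 allele on both chromosomes. The comparison sets the 3 samples titled E13 p63-/- against the 3 titled E12 p63-/-, which are 6 of the 24 samples of the series, over 12698 genes with a detected probe. E13 p63-/- and E12 p63-/- embryos both carried 2 copies of the Trp63tm2Brd allele on the B6.129S7 background and came from crosses between carriers. The E13 p63+/- and E12 p63+/- embryos, 3 of each, were littermates with 1 copy, and they are used beside them to show the same day of development. No group was wild type. Embryos of the same group were from different litters, no samples were pooled, and each prominence was hybridised to 1 single-colour Illumina bead array. The label of each sample gives embryonic day, genotype and tissue, and no treatment is named.

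The mandibular prominence is the part of the first pharyngeal arch that forms the lower jaw and its teeth. It holds neural crest mesenchyme, a core of muscle precursors, vessels with circulating blood, nerves and a covering epithelium. p63 (gene symbol Trp63) is the transcription factor that stratified epithelia depend on, and mice without it lack a stratified epidermis and teeth. Around these days the mesenchyme condenses to cartilage and bone, myoblasts fuse, and primitive red cells made in the yolk sac give way to definitive red cells made in the liver.

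Stage and slide cannot be told apart, because all 6 arrays of a stage lay on 1 slide. Mesenchyme markers were present throughout: Prrx1, a homeobox factor of jaw mesenchyme, was detected on all 6 p63-/- arrays, at 10.09, 10.50 and 10.46 at E13 and at 10.74, 10.56 and 10.22 at E12 (normalized log2 intensity, the scale of all levels below). The first principal component of the 12 E12 and E13 arrays separated the stages. E12 p63-/- replicate 3 lay farthest to the E12 side at -42.7, and E13 p63-/- replicate 1 was at 38.5. The p63+/- array of the same stage and replicate number was also extreme in each case, at -40.0 and 41.1. E12 p63-/- replicate 3 also had the highest level of 18 liver and yolk sac genes among the E12 and E13 p63-/- arrays, with a mean of 7.13 against 5.52 and 5.75 on the other E12 arrays. On the E13 p63-/- arrays that mean lay between 5.54 and 5.675. The part of these cells in the results was not tested. Replicate 2 of each p63-/- group lacked Xist and carried Y-linked transcripts, so each group held 2 embryos with Xist and 1 without. Between 45.2% and 47.85% of the probes were detected on the 6 p63-/- arrays, and 3 arrays a group limit the precision of each value.

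Trp63 itself was no lower on the later day. It read 9.64, 8.97 and 9.07 in E13 p63-/- prominences and 9.59, 9.11 and 9.33 in E12 p63-/- prominences, which overlap (log2 difference -0.12 ± 0.24, SE, adjusted p = 0.757). In p63+/- littermates it read between 10.19 and 10.70 at E13 and between 10.22 and 10.66 at E12, above every p63-/- array. The sources used here do not give whether the probe lies in the part that the allele alters. Krt5, the basal keratin that p63 is known to switch on, was chosen after its values were seen and so is no check of the labels. It was detected on 0 of 3 E13 p63-/- arrays, where it read 5.35, 5.40 and 5.01, whereas E13 p63+/- arrays read 8.89, 9.18 and 8.73.

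Between E12 and E13, prominences without p63 gained bone, cartilage, connective tissue and muscle transcripts and lost transcripts of red cell and cell cycle genes. Of the 12698 genes, 2344 (18.5%) passed an adjusted p of 0.05 in limma, 1226 higher (9.66%) and 1118 lower (8.8%) at E13. The large changes were mostly rises: 386 genes rose and 100 fell at least 2-fold, and 67 rose and 25 fell at least 4-fold. Called genes detected on no E12 array and on all 3 E13 arrays numbered 86, against 44 with the reverse. The median difference over all genes was -0.02. The 3 E13 values lay wholly above the 3 E12 values for 18.3% of all genes and wholly below them for 19.1%. In whole prominences, fewer cells of a type and less RNA per cell cannot be told apart, for any group of genes below. The count rested on particular embryos, falling to 782 without E12 p63-/- replicate 3, to 860 without E13 p63-/- replicate 1 and to 1502 without E12 p63-/- replicate 1. It was 652 when the 6 arrays were fitted alone and 4331 with array weights.

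**Figure D1:**
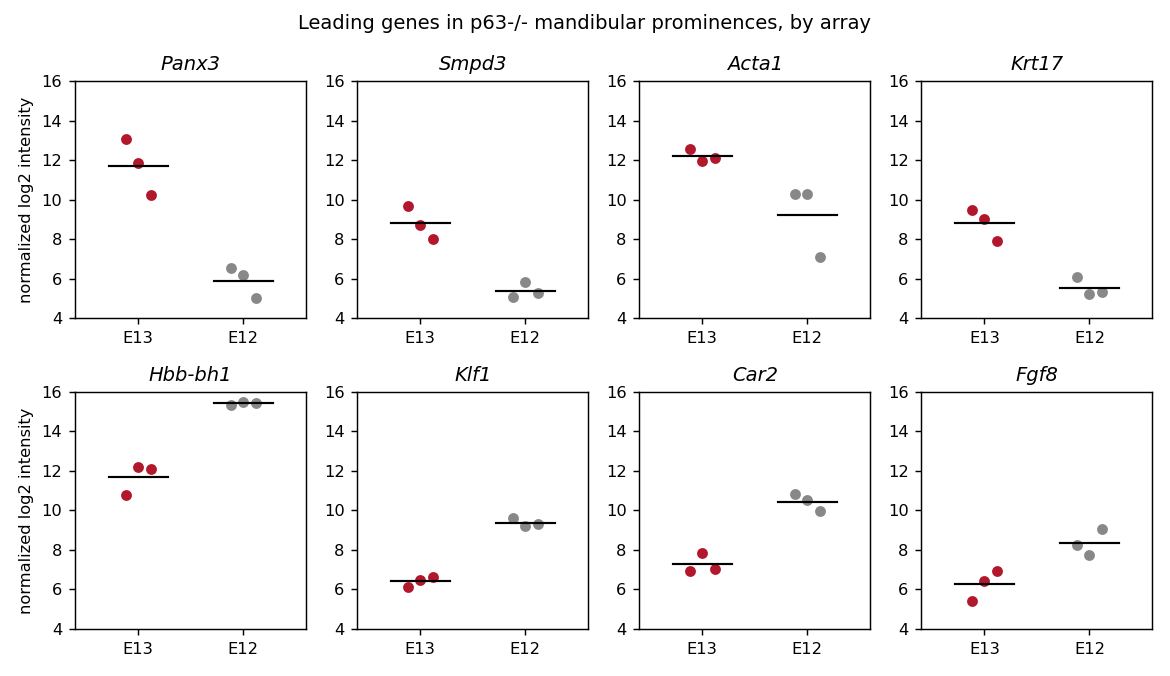
Normalized log2 intensity (vertical axis) of 8 genes on each array of E13 p63-/- (left, red) and E12 p63-/- (right, grey) prominences; points are embryos and lines are group means (n = 3 each). Panx3 lay between 10.25 and 13.05 at E13 and between 5.00 and 6.53 at E12, and Hbb-bh1 between 10.79 and 12.17 at E13 and between 15.33 and 15.48 at E12.

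Of the genes the rule named, the bone gene Panx3 had the largest rise. It codes for pannexin 3, a channel protein of osteoblasts and maturing chondrocytes. Panx3 read 13.05, 11.87 and 10.25 in E13 p63-/- prominences, against 6.53, 6.17 and 5.00 in E12 p63-/- prominences. The E13 values lay far above the E12 values, of which 2 of 3 were detected, and the difference was 5.82 ± 0.55 on the log2 scale (SE), a 56.5-fold rise (adjusted p = 8.7e-06). Smpd3, the sphingomyelinase that bone mineralisation needs, read 9.67, 8.72 and 7.99 at E13 against 5.07, 5.84 and 5.29 at E12, where 1 array detected it (3.40 ± 0.31, adjusted p = 6.41e-06). Sp7, or osterix, which commits cells to the osteoblast lineage, read 12.43, 11.86 and 10.73 at E13 against 10.08, 9.14 and 8.08 at E12 (2.57 ± 0.44, adjusted p = 0.00104). For both genes every E13 embryo was above every E12 embryo. That held for 18.3% of all genes, and the rule that named Smpd3 required it.

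Of 14 osteoblast genes measured, 6 rose and 0 fell (42.9% called, against 18.5% of all genes), with a median of 0.99. Alpl, the alkaline phosphatase of mineralising cells, rose by 1.77, and Ifitm5, an osteoblast membrane protein, rose by 2.70. Ifitm5 ranged widely at E13, with 11.36, 9.28 and 6.98 against 6.59, 6.40 and 6.50 at E12. Ibsp, bone sialoprotein, read 11.71, 8.44 and 5.42 at E13 and 5.37, 5.61 and 5.48 at E12, so 1 E13 embryo was within the E12 range and the call was missed (adjusted p = 0.0515). Ibsp passed without that embryo, E13 p63-/- replicate 3, and 1 of its other 2 probes passed with it (log2 difference 4.53). Within the E13 group the same order held for Panx3, Smpd3, Sp7, Ifitm5 and Alpl, with replicate 1 highest and replicate 3 lowest. The number of osteoblast genes called fell to 2 without E12 p63-/- replicate 3 or without E13 p63-/- replicate 1 and to 3 without E13 p63-/- replicate 2. Alpl lost its call without either of the first 2 arrays and Ifitm5 without any of the 3 (adjusted p up to 0.0858 and 0.14).

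Of 22 genes of Meckel's cartilage, the rod that prefigures the lower jaw, 10 rose and 0 fell. The list's median was 0.46, and 45.5% were called, against 18.5% of all genes. Matn1, the cartilage matrix protein matrilin 1, read 7.58, 9.65 and 7.92 at E13 and was detected on 0 of 3 E12 arrays, where it read 5.22, 5.14 and 4.97. It was at least 7.45-fold higher at E13, a bound set against the lowest detected signal of the E12 arrays (adjusted p = 0.000423). Cytl1, a secreted protein of chondrocytes, read 8.35, 8.62 and 7.51 at E13 against 5.76, 5.65 and 5.12 at E12 (2.65 ± 0.28, adjusted p = 2.1e-05). Snorc, a chondrocyte proteoglycan, was at least 3.11-fold higher, with E13 readings of 7.96, 7.42 and 5.99 and no E12 detection. Sox9, the master regulator of chondrocytes, read 12.70, 13.71 and 13.71 at E13 and 13.63, 13.70 and 13.31 at E12, and Col2a1, its collagen target, differed by 0.05. Neither passed (adjusted p = 0.664 and 0.919). The list's count was 4 without E12 p63-/- replicate 3 and 6 without E13 p63-/- replicate 2.

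Genes of fibrous connective tissue and its matrix rose. Of 29 tendon, fibrous tissue and matrix genes, 19 rose and 0 fell (65.5% called, against 18.5% of all genes), with a median of 1.14. Their mean level was 11.05, 10.71 and 10.35 on the E13 p63-/- arrays and 9.60, 9.85 and 8.82 on the E12 p63-/- arrays, with no overlap. Col14a1, a collagen that binds to fibril surfaces, read 8.88, 8.39 and 8.06 at E13 against 5.54, 6.19 and 4.94 at E12 (2.89 ± 0.45, adjusted p = 0.000517). Lox, the enzyme that cross-links collagen and elastin, rose by 2.65, and Thbs2, a matricellular thrombospondin, rose by 2.71. Egr1, named from the immediate early list, also acts in tendon cells, but which cells its rise came from was not tested. Egr1 read 11.07, 10.69 and 10.40 at E13 and 8.93, 9.34 and 8.95 at E12 (1.65 ± 0.21, adjusted p = 0.000128). Dcn, the small proteoglycan decorin, differed by 1.97 without passing (adjusted p = 0.0612). The list's count was 10 without E12 p63-/- replicate 3 and also 10 without E13 p63-/- replicate 1.

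Other secreted factors were among the 15 largest rises. Gdf10, a bone morphogenetic protein relative, read 12.62, 12.07 and 11.65 at E13 against 9.19, 10.29 and 6.95 at E12. Pamr1 read 10.67, 10.21 and 8.87 at E13 against 5.91, 7.30 and 5.13 at E12, and its second probe rose too. The chemokine genes Cxcl13 and Ccl21a, which guide lymphoid cells, rose by 3.35 and 3.38. Ccl21c rose by 3.15, but Ccl21a and Ccl21c are near-identical copies that a probe may not separate. Gdf10 missed the threshold when the 6 arrays were fitted alone (adjusted p = 0.0538).

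Skeletal muscle genes rose together. Of 47 sarcomere and muscle excitation genes, 38 rose and 0 fell (80.9% called, against 18.5% of all genes). The list's median was 1.55, and all 47 had a difference above 0. Their mean level was 9.91, 9.48 and 9.61 on E13 p63-/- arrays and 8.58, 8.56 and 7.35 on E12 p63-/- arrays. Acta1, the actin of skeletal muscle fibres, read 12.55, 11.95 and 12.11 at E13 against 10.29, 10.27 and 7.12 at E12 (2.98 ± 0.66, adjusted p = 0.00566). E12 p63-/- replicate 3 was far below the other E12 embryos, while the E13 embryos were close to each other. Csrp3, the muscle LIM protein of the Z disc, read 9.96, 9.06 and 8.75 at E13 against 7.00, 6.74 and 4.81 at E12, and its 3 probes all rose. Tnnc2, the calcium sensor of fast fibres, rose by 2.91, Myh8, the perinatal myosin heavy chain, by 2.69, and Cox6a2, the respiratory chain subunit of striated muscle, by 3.25. Des, or desmin, the intermediate filament of muscle and mural cells, read 10.45, 10.17 and 10.11 at E13 against 9.22, 9.38 and 8.99 at E12.

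The count of called sarcomere genes was 19 without E12 p63-/- replicate 3 and 24 without E13 p63-/- replicate 1. Without E12 p63-/- replicate 3 the list's median was 1.04, and Acta1 rose by 1.92 and still passed. Acta1, Tnnc2 and Myh8 missed the threshold when the 6 arrays were fitted alone (adjusted p = 0.0686, 0.0593 and 0.0514).

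The Acta1 promoter window is shown because this gene is among the largest rises of the muscle group and holds the motifs that its known regulators bind. It spans chr8:123894726-123895025 on the minus strand (RefSeq, build GRCm38.p6), a stretch of 300 bases around the transcription start. Capitals mark a CAGCTG E-box, the form that myogenic factors bind, and a CArG box, the serum response factor motif, both searched on both strands.
Acta1: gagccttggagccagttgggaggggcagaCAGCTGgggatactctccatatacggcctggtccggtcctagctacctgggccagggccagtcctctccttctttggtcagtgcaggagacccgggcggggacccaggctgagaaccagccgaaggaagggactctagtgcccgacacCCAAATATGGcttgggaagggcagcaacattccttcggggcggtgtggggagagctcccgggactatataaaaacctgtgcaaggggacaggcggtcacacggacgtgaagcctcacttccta
CAGCTG was found in 16.3% of all 32851 RefSeq promoter windows and a CArG box in 1.6%. Of the 47 muscle genes, 36 (76.6%) had a window, and no share over the list is given.

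Of 19 regulators of myogenesis, 3 rose and 4 fell (36.8% called, against 18.5% of all genes), with a median of 0.14. Mef2c, the partner of the myogenic factors in fibre differentiation, read 11.07, 10.87 and 10.49 at E13 against 9.65, 9.73 and 8.83 at E12 (1.40 ± 0.23, adjusted p = 0.000858), and all 4 of its probes rose. Eya1, a transcription cofactor of early head muscle and placodes, read 8.87, 9.18 and 9.11 at E13 against 10.01, 9.56 and 9.66 at E12, and fell by 0.69, though 1 of its 3 probes did not pass. Six4 and Tcf21, early head muscle factors, fell by 0.91 and 1.27. Myod1 and Myog, the determination and differentiation factors, differed by 0.52 and 1.05 without passing (adjusted p = 0.298 and 0.106). Myog read 9.57, 9.53 and 9.88 at E13 and 9.37, 9.22 and 7.24 at E12, and without E12 p63-/- replicate 3 the difference was 0.36. Without that array Six4 and Tcf21 lost their calls (adjusted p = 0.0576 and 0.0558) and 3 of the 19 passed.

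**Figure D2:**
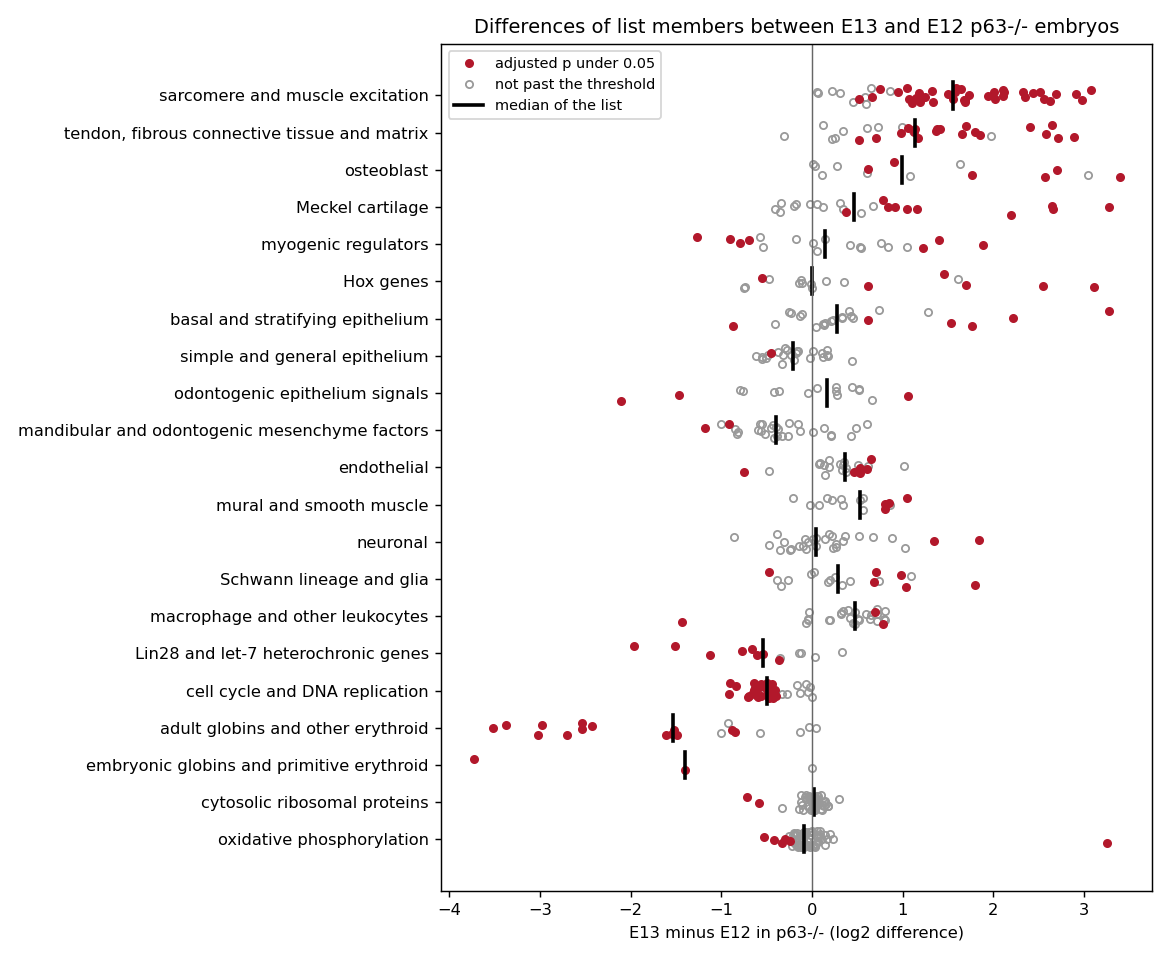
E13 minus E12 log2 difference in p63-/- prominences (horizontal axis) for each measured member of 21 gene lists, 1 list a row. Filled red points passed an adjusted p of 0.05, open grey points did not, and the black tick is the list's median, which is 1.55 for the sarcomere list and -1.53 for adult globins and other erythroid genes.

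Genes of red cells were prominent among the largest falls. Hbb-bh1, the embryonic beta-type globin of primitive red cells, read 10.79, 12.17 and 12.10 in E13 p63-/- prominences against 15.33, 15.48 and 15.44 in E12 p63-/- prominences. The difference was -3.73 ± 0.31, a 13.3-fold fall (adjusted p = 3.24e-06). Hba-x, the embryonic alpha-type globin, read 13.78, 14.73 and 13.95 at E13 against 15.57, 15.54 and 15.52 at E12 (-1.39 ± 0.15, adjusted p = 2.75e-05). Hbb-y, the other embryonic beta-type globin, read 15.71, 15.65 and 15.76 at E13 and 15.74, 15.71 and 15.67 at E12 and did not differ beyond the spread. Both the E12 readings and Hbb-y lay near 15.84, the highest normalized value on any of these arrays, where differences can be compressed.

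Beyond the embryonic globins, 14 of 20 erythroid genes fell and 0 rose (70.0% called, against 18.5% of all genes), with a median of -1.53. The list's mean level was 8.33, 8.63 and 8.32 on E13 p63-/- arrays and 10.38, 10.12 and 9.82 on E12 p63-/- arrays. Klf1, the erythroid Krüppel-like factor that drives adult globin, read 6.14, 6.46 and 6.64 at E13 against 9.62, 9.22 and 9.31 at E12 (-2.97 ± 0.42, adjusted p = 0.000267). Slc4a1, the anion exchanger band 3 of the red cell membrane, read 11.19, 11.87 and 11.32 at E13 against 14.15, 14.16 and 13.34 at E12 and fell 5.37-fold. Every E13 embryo lay below every E12 embryo for both genes, which the rule that named them required. That held for 19.1% of all genes. Rhag, the Rhesus-associated glycoprotein, was detected on 0 of 3 E13 arrays and was at least 7.37-fold lower, and Hemgn, a nuclear protein of red cell precursors, at least 7.46-fold lower. Icam4, a red cell adhesion molecule, was at least 4.32-fold lower on the same basis.

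Kel and Ermap code for membrane proteins that carry blood groups. Kel fell by 2.70 and Ermap fell by 2.92. Nfe2, a globin gene activator, fell by 2.54 and Trim10, a protein of late red cell maturation, by 3.02. Sptb, the spectrin of the red cell skeleton, fell by 3.38 on its brightest probe, and 1 of its 2 dim probes did not pass. The dim second probe of Hemgn did not pass either. Car2, the carbonic anhydrase abundant in red cells, read 6.94, 7.84 and 7.02 at E13 against 10.84, 10.53 and 9.95 at E12. Cited4, a transcription cofactor, fell by 3.54, and Slc38a5, an amino acid transporter, fell by 3.37. Cyp4b1-ps2, a pseudogene whose probe may also see its parent gene, was at least 4.52-fold lower.

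No adult globin passed. Hba-a1, Hbb-bs and Hbb-bt differed by -0.13, 0.04 and -0.04, and Hbb-b2, which was dim, differed by -1.0025 (adjusted p between 0.24 and 0.949 over the 4). Pf4, a platelet chemokine, read 9.82, 9.59 and 9.83 at E13 against 11.27, 11.35 and 10.91 at E12 and fell by 1.43. The number of erythroid genes called was 9 without E13 p63-/- replicate 1, and Icam4 missed the threshold in the authors' processed values (adjusted p = 0.0581).

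Promoter windows of 3 fallen genes are shown for the GATA motif AGATAA, to which the red cell factor GATA1 binds, and for CCACACCC, the motif of the factor that Klf1 encodes. Hemgn and Kel hold the first motif and Klf1 holds neither, and capitals mark the matches on either strand. The windows are Hemgn at chr4:46404134-46404433 on the minus strand, Kel at chr6:41704276-41704575 on the minus strand and Klf1 at chr8:84901732-84902031 on the plus strand.
Hemgn: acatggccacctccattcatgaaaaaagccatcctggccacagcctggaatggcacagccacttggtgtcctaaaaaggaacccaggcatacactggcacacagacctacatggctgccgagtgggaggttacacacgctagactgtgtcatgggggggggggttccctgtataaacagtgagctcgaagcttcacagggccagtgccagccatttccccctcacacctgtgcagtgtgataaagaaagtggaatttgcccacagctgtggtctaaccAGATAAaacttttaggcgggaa
Kel: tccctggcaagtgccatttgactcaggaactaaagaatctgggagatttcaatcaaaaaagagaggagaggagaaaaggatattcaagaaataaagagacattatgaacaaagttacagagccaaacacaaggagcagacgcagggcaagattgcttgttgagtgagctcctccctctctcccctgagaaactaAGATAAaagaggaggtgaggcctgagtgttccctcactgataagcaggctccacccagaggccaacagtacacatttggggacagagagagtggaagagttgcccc
Klf1: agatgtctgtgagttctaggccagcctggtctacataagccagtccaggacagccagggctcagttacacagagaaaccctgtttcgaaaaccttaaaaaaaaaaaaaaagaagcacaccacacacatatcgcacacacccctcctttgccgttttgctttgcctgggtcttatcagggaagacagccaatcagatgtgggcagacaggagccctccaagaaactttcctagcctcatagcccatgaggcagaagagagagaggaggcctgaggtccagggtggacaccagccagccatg
Of the 20 erythroid genes, 16 had a RefSeq window, and 9 of these (56.2%) held AGATAA, against 12.7% of the 27025 genes with a window. CCACACCC was in the windows of 1 of the 16 (6.2%) and of 4.1% of all genes with a window. A match is a description of the letters in the window.

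Genes of the cell cycle fell by small amounts and together. Of 44, 36 fell and 0 rose (81.8% called, against 18.5% of all genes). All 44 differences were below 0, with a median of -0.49. The list's mean level was 10.73, 10.92 and 10.99 on E13 p63-/- arrays and 11.33, 11.23 and 11.53 on E12 p63-/- arrays. Rrm2, the small subunit of ribonucleotide reductase, read 9.34, 9.72 and 9.78 at E13 against 10.62, 10.17 and 10.74 at E12 (-0.90 ± 0.18, adjusted p = 0.00253). Cdc6, which loads the replicative helicase, fell by 0.71, and Ube2c, which marks mitotic cyclins for destruction, fell by 0.92. The D-type cyclin genes Ccnd1 and Ccnd2 differed by -0.06 and 0.00 and did not pass. The count of fallen genes was 17 without E12 p63-/- replicate 3 and 15 without E13 p63-/- replicate 1, and only 4 passed when the 6 arrays were fitted alone.

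Genes of the heterochronic Lin28 and let-7 circuit, which marks early developmental time, also fell. Of 13, 8 fell and 0 rose (61.5% called, against 18.5% of all genes), with a median of -0.54. Arid3b, a let-7 target, read 6.91, 7.03 and 7.61 at E13 against 8.46, 8.45 and 9.17 at E12 (-1.51 ± 0.29, adjusted p = 0.00249). Trim71, a let-7 target and RNA-binding ubiquitin ligase, was detected on 0 of 3 E13 arrays and was at least 2.74-fold lower, though its dim second probe did not pass. Lin28b, the let-7 inhibitor, read 5.64, 5.91 and 6.26 at E13 against 6.60, 6.80 and 7.77 at E12. Trim71 lost its call without E12 p63-/- replicate 3 (adjusted p = 0.0575), and Lin28b lost its call without E12 p63-/- replicate 3, E13 p63-/- replicate 1 or E13 p63-/- replicate 2 (adjusted p up to 0.202). The list's count was 2 without the first of these arrays and 4 without either of the others.

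Some epidermal genes rose in embryos without p63. Of 24 genes of basal and stratifying epithelium, 5 rose and 1 fell, with a median of 0.28. These 6 calls were a share of the list only somewhat above the 18.5% of all genes. With the 6 arrays fitted alone, 3 of the 24 passed. Krt17, a keratin of the early epidermis and its appendages, read 9.50, 9.01 and 7.93 in E13 p63-/- prominences against 6.07, 5.21 and 5.34 in E12 p63-/- prominences, where 1 array detected it (3.27 ± 0.43, adjusted p = 0.00014). Krt15, a basal keratin, read 10.84, 10.63 and 9.95 at E13 against 8.48, 8.36 and 7.95 at E12 (2.21 ± 0.42, adjusted p = 0.00217). Zfp750, a zinc finger factor of epidermal differentiation, rose by 1.76. All of these were higher in each E13 embryo than in any E12 embryo. That held for 18.3% of all genes, and the rule that named Krt17 required it. In p63+/- littermates Krt17 read 11.30, 11.03 and 9.95 at E13 and Krt15 read 11.80, 11.80 and 11.39, above the p63-/- embryos of the same day, and Krt17 rose by 2.83 there.

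Krt14, the partner of Krt5, read 10.55, 10.49 and 10.50 at E13 against 10.06, 8.92 and 7.97 at E12 and rose by 1.53. It lost its call without E12 p63-/- replicate 3, E13 p63-/- replicate 1 or E13 p63-/- replicate 2 (adjusted p up to 0.175). Krt4, a mucosal keratin, also passed, and Fermt1, which links epithelial integrins to the cytoskeleton, fell by 0.87 but missed the threshold without E13 p63-/- replicate 1 (adjusted p = 0.0699). Krt4 lost its call without E13 p63-/- replicate 1 or 2 (adjusted p up to 0.0635). The count of called basal genes was 3 without E13 p63-/- replicate 1. Of 24 genes of epithelium in general, 0 rose and 1 fell (4.17%), Grhl2, a call lost in 7 of 13 fits with an array left out. Cdh1, or E-cadherin, differed by -0.03.

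Of 16 signals and factors of the odontogenic epithelium, the source of tooth buds, 1 rose and 2 fell, with a median of 0.16. The share called was 18.8%, near the 18.5% of all genes. Fgf8, the growth factor that patterns oral ectoderm, read 5.40, 6.43 and 6.92 at E13 against 8.24, 7.76 and 9.06 at E12, and 2 of 3 E13 arrays detected it (-2.10 ± 0.42, adjusted p = 0.0031). Sp6, or epiprofin, a factor of dental epithelium, read 5.74, 6.13 and 5.87 at E13 against 6.96, 7.73 and 7.44 at E12 (-1.46 ± 0.27, adjusted p = 0.00156). Fgf8 fell by 2.12 in p63+/- littermates. Wnt10a, a tooth placode ligand, rose by 1.06, a call lost without E12 p63-/- replicate 3 or E13 p63-/- replicate 1 (adjusted p up to 0.108). Shh, chosen after its values were seen, read 5.91, 6.67 and 6.77 at E13 and 6.57, 6.66 and 8.48 at E12 and did not pass. The list's count was 5 without E12 p63-/- replicate 1.

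Among 29 mesenchyme factors of the mandible and tooth, 0 rose and 2 fell, with a median of -0.40. The share called was 6.9%, below the 18.5% of all genes. The fallen members were Dlx2 and Hand1, homeobox and basic helix-loop-helix factors of the arch. Dlx2 read 8.93, 9.88 and 9.74 at E13 against 10.24, 10.29 and 10.76 at E12 and fell by 0.91. Hand1 was dim, with 0 of 3 arrays detecting it at E13 and 2 of 3 at E12. Both lost their calls without E12 p63-/- replicate 3 or E13 p63-/- replicate 1, and Hand1 also without replicate 2 of either group (adjusted p up to 0.147 and 0.129). The list's count ranged between 0, without E12 p63-/- replicate 3 or E13 p63-/- replicate 1, and 7, without E13 p63-/- replicate 3. In p63+/- littermates 12 of the 29 fell and 1 rose, with a median of -0.55, where 18.6% of all genes passed. In p63-/- prominences 13 of the 29 had an unadjusted p under 0.05 (limma), as did 4373 of all 12698 genes. Of the 29, 0 passed the test of a difference between the genotypes, and 0 had an unadjusted p under 0.05 in it.

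Several genes of the Hoxd cluster rose. Hox genes give cells their place along the body axis and are silent in most first arch mesenchyme. Of 17 measured, 5 rose and 1 fell (35.3% called, against 18.5% of all genes). The 5 were Hoxd1, Hoxd3, Hoxd4, Hoxd8 and Hoxd9. Over the list, 9 differences were above 0 and 8 below, with a median of 0.00. In p63+/- littermates 8 of the 17 rose and 0 fell. In p63-/- prominences Hoxd8 read 10.05, 9.75 and 8.37 at E13 against 6.04, 7.72 and 5.09 at E12 (3.11 ± 0.57, adjusted p = 0.00168). Hoxd4 read 8.79, 7.66 and 6.18 at E13 against 4.79, 5.47 and 4.74 at E12 (2.54 ± 0.41, adjusted p = 0.00075). Hoxd9 was detected on 0 of 3 E12 arrays and was at least 2.19-fold higher at E13. En1, a homeobox gene of ectoderm and of the dermis and tendon precursors of other body regions, read 9.91, 9.59 and 9.06 at E13 against 7.42, 7.41 and 4.75 at E12. Each of these 4 genes was lower in every E12 embryo than in any E13 embryo. That held for 18.3% of all genes, and the rule that named Hoxd8 and En1 required it. Hoxb3 was detected on 0 of 3 E13 arrays and was at least 1.05-fold lower, a call lost without any of E12 p63-/- replicates 1, 2 and 3 and E13 p63-/- replicates 1 and 3 (adjusted p up to 0.101). Hoxd1 lost its call without E12 p63-/- replicates 1 or 3 or E13 p63-/- replicate 1 (adjusted p up to 0.0823), and Hoxd3, Hoxd4, Hoxd8, Hoxd9 and En1 missed the threshold when the 6 arrays were fitted alone (adjusted p between 0.0513 and 0.0861), a fit in which 1 of the 17 Hox genes passed.

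**Figure D3:**
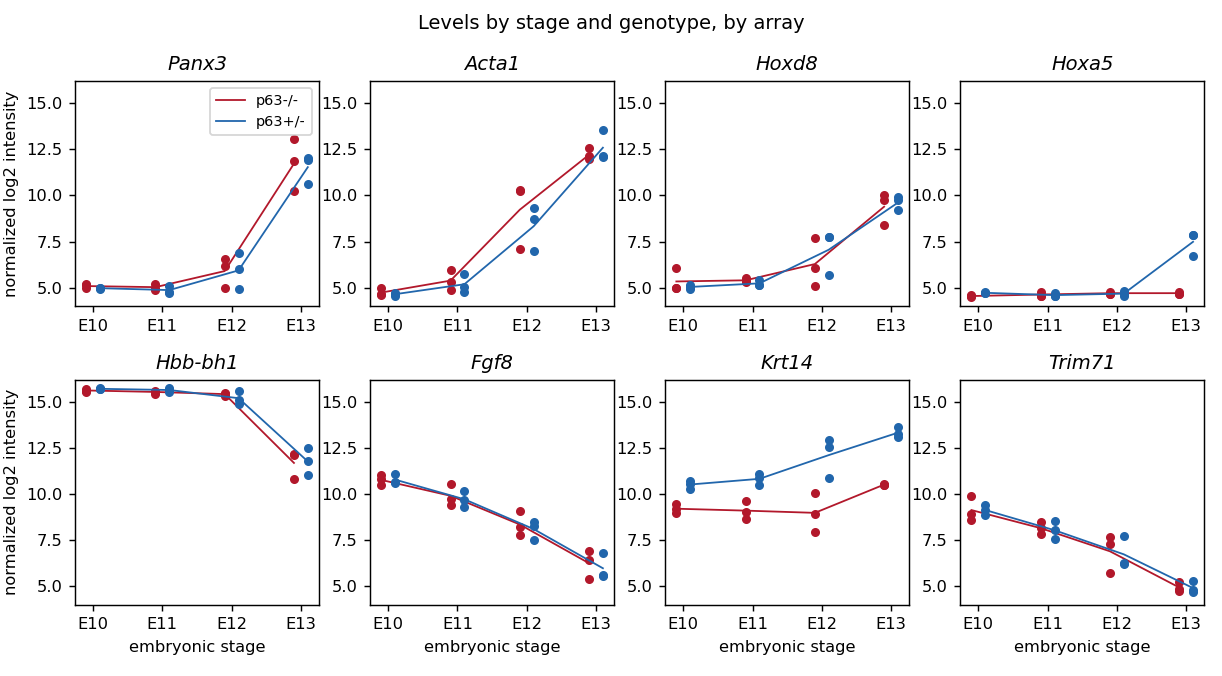
Normalized log2 intensity (vertical axis) of 8 genes from E10 to E13 (horizontal axis) in p63-/- (red) and p63+/- (blue) prominences; points are embryos, offset sideways for legibility, and lines join group means (n = 3 each). Acta1 lay between 11.95 and 12.55 in E13 p63-/- prominences against 7.12 to 10.29 in E12 p63-/- prominences, and Hoxa5 was detected on the 3 E13 p63+/- arrays alone.

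Readouts of the signalling pathways moved in both directions. Of 38 readouts of Wnt, Shh, Fgf, Bmp and retinoid signalling, 9 rose and 4 fell. The list's median was -0.10, and 34.2% were called, against 18.5% of all genes. Sp5, a Wnt target, read 9.79, 9.71 and 8.92 at E13 against 6.61, 7.67 and 7.10 at E12 (2.35 ± 0.28, adjusted p = 7.01e-05). Sfrp2, a secreted Wnt modulator, and Aldh1a3, a retinoic acid synthesising enzyme, each rose by 1.51. The Fgf readouts Etv4 and Dusp6 fell. Etv4 read 7.64, 8.19 and 8.47 at E13 against 9.20, 9.12 and 9.84 at E12, and Dusp6 fell by 0.50. Axin2 and Ptch1, the usual readouts of Wnt and Shh signalling, differed by -0.13 and -0.34 and did not pass. The list's count was 8 without E13 p63-/- replicate 1.

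Of 24 endothelial genes, 6 rose and 1 fell, with a median of 0.37, and Icam2, an endothelial adhesion molecule, read 9.92, 9.69 and 9.57 at E13 against 8.97, 9.15 and 9.11 at E12. The endothelial count fell to 1 without E12 p63-/- replicate 3 or E13 p63-/- replicate 1 and to 2 without E12 p63-/- replicate 1 or E13 p63-/- replicate 2. Of 15 mural cell genes, 4 rose and 0 fell, with 1 left without E12 p63-/- replicate 3 and 2 without E13 p63-/- replicate 1. Of 28 macrophage and leukocyte genes, 2 rose and 1, Pf4, fell, and between 1 and 8 passed with an array left out. The shares called were 29.2%, 26.7% and 10.7% of the endothelial, mural and macrophage lists, against 18.5% of all genes.

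Of 18 Schwann lineage and glial genes, 5 rose and 1 fell, with a median of 0.29. Adgrg6, the receptor that Schwann cells need to myelinate, read 8.76, 8.00 and 7.73 at E13 against 6.46, 6.95 and 5.69 at E12 (1.79 ± 0.30, adjusted p = 0.00092). Of 29 neuronal genes, 2 rose and 0 fell. The share called was 33.3% of the glial list and 6.9% of the neuronal list, against 18.5% of all genes. The neuronal members that rose were Ntrk2, the BDNF receptor, by 1.84, and Scg2, a granin of secretory granules. Scg2 was detected on 0 of 3 E12 arrays and was at least 1.75-fold higher. The mean neuronal level differed between embryos of a group, with 7.32, 7.45 and 8.88 at E13 and 7.13, 8.73 and 7.27 at E12, with 1 embryo at each stage well above the others. Of 18 hepatocyte and yolk sac genes, 0 passed at an adjusted p of 0.05 in limma and 0 had an unadjusted p under 0.05.

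The same day was also covered by embryos with 1 intact p63 allele. In p63+/- prominences 2357 genes passed (18.6%), 1230 higher and 1127 lower at E13. Of the 2344 genes called without p63, 1589 were also called with it in the same direction, 0 in the opposite direction, and 2330 had a difference of the same sign. The shared calls were 67.8% of the p63-/- calls and 67.4% of the p63+/- calls. These comparisons share no arrays but share the slides of the stages. Panx3 rose by 5.82 in p63-/- and by 5.59 in p63+/- prominences, and Hbb-bh1 fell by 3.73 in p63-/- and fell by 3.43 in p63+/- prominences. All 3 E12 p63+/- arrays carried Xist and none of the E13 p63+/- arrays did, so stage and sex cannot be told apart in p63+/- embryos. With Xist as a covariate the p63+/- count was 701.

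The difference between the genotypes was itself tested, on which an additive slide effect cancels. Of 12698 genes, 1 passed (0.00788%), and 200 (1.58%) had an unadjusted p under 0.05. That gene was Hoxa5, a trunk and posterior arch Hox gene on chromosome 6. It read 4.67, 4.76 and 4.68 in E13 p63-/- and 4.78, 4.66 and 4.67 in E12 p63-/- prominences, with no detection, and 7.86, 7.87 and 6.74 in E13 p63+/- and 4.81, 4.56 and 4.66 in E12 p63+/- prominences. It was detected on the 3 E13 p63+/- arrays and on none of the other 21 arrays of the series. It entered the tested genes through the group in which it was high, and it still passed with no detection filter (adjusted p = 4.12e-05). E13 p63+/- prominences were at least 4.01-fold above E12 p63+/- prominences, and the p63-/- groups were both below detection, with no fold between them. The fitted Hoxa5 genotype difference, the p63-/- change minus the p63+/- change, was -2.81 (adjusted p = 3.21e-05), a size that rests on undetected readings. It was -1.85 with an offset of 50, -1.41 with quantile normalization alone and -0.70 in the authors' processed values. Without any 1 of the E13 p63+/- arrays the gene no longer met the detection filter and was not tested, and with the 12 E12 and E13 arrays alone its adjusted p was 0.0514.

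**Figure D4:**
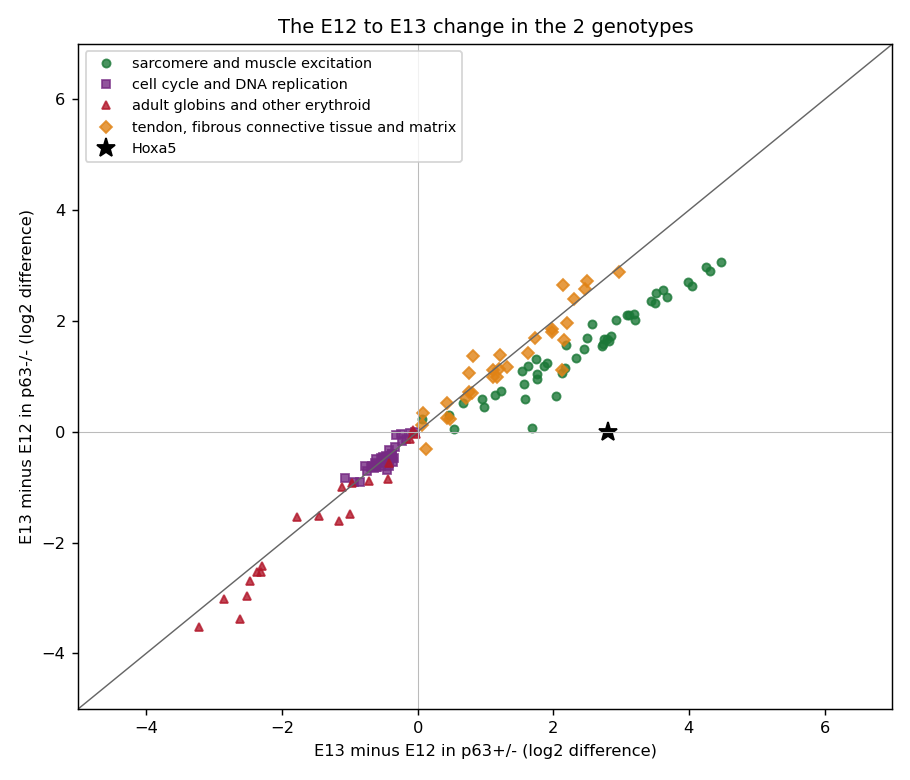
E13 minus E12 log2 difference in p63-/- (vertical axis) against that in p63+/- prominences (horizontal axis) for members of 4 gene lists and for Hoxa5 (star); the diagonal marks equal change. Sarcomere genes (green circles) lay below the diagonal in 46 of 47 cases, and Hoxa5 stood at 0.00 and 2.81.

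In the sarcomere list the p63-/- change was smaller than the p63+/- change for 46 of the 47, with a median of -1.0, where 49.5% of all genes were below 0. Of the 47, 0 passed at an adjusted p of 0.05 in limma and 10 had an unadjusted p under 0.05, a count that lay between 2 and 32 with an array left out. The count was 29 with same-numbered embryos of the 2 genotypes paired by a replicate block within each stage. That fit was added after the data were seen, and in it 396 of all genes (3.12%) had such a p. The E13 list means were 9.91, 9.48 and 9.61 in p63-/- and 10.74, 9.77 and 9.72 in p63+/- prominences, and the E12 list means were 8.58, 8.56 and 7.35 in p63-/- and 7.93, 7.98 and 7.14 in p63+/- prominences. With an array left out the median lay between -1.42, without E12 p63-/- replicate 3, and -0.62, without E12 p63+/- replicate 3, and it was -0.55 in the authors' processed values and -0.67 with quantile normalization alone. It was -0.64 without E13 p63+/- replicate 1 and -0.84 with Xist as a covariate. The members are measured on the same embryos and are not replicates.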

How the data were processed

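Single mandibular prominences of 24 embryos were measured on Illumina mouse bead arrays, in 8 groups of 3 by the labels. Per the file headers, the deposited table of 45281 probes pairs each array's intensity with its detection p-value. The authors' processed values, a deposited log2 table with unstated steps, served as an alternative. The submitters' processing notes name BeadStudio, lumi and RMA without saying which values each made.

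The deposited intensities went through neqc (normexp background correction, quantile normalization, log2, offset 16; limma 3.58.1, R 4.3.3). A probe was kept if at least 3 arrays gave a detection p under 0.05, and the brightest probe stood for each of 12698 genes. All 8 group means were fitted with lmFit and eBayes over 24 arrays (16 residual and 2.96 prior degrees of freedom), with Benjamini-Hochberg adjustment over all genes. The contrasts were E13 minus E12 in p63-/-, the same in p63+/-, and the difference of the 2. The fold of a gene detected on no array of a group is given as a bound against the lowest detected signals there. The fit was tested on simulated data.

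Same-numbered embryos of the 2 genotypes deviated together within E12 (correlations 0.41, 0.28 and 0.43) and within E13 (0.63, 0.25 and 0.62). They were therefore paired within each stage in an alternative fit. The labels do not give the litter, and whether equal numbers mark littermates was not tested. Across stages same-numbered embryos did not deviate together (0.084, -0.052 and 0.1 in p63-/-). The compared stages therefore have no pairing.

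The 32 gene lists and the samples compared were chosen with earlier results of these data known. The genes named were Trp63, the 15 highest and 15 lowest differences among called genes without overlap, up to 6 each way for the genotype difference, and up to 4 called members each way per list, or 2 by smallest p. Clone names and sex-linked markers were left out of the rankings. Named outside the rule, after their values were seen, were Ibsp, Sox9, Col2a1, Myod1, Myog, Krt5, Hbb-y, Shh, Hoxd1, Krt4, Dcn, Xist and the markers and list members given only as values. Promoter windows were taken from RefSeq, build GRCm38.p6. Alternatives changed the background correction, offset, filter, probe rule, arrays fitted, weights, block and Xist covariate, and left out arrays in turn.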

Additional observations from a re-analysis of the deposited data

Results flagged for a closer look

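The change of Hoxa5 from E12 to E13 passed the test of a difference between the genotypes. The fitted p63-/- change minus the p63+/- change was -2.81 (limma, adjusted p = 3.21e-05), and its size rests on readings below detection in 3 of the 4 groups. The adjusted p was 0.0514 with the 12 arrays alone, and the gene was not tested without any 1 of the E13 p63+/- arrays. At E13 it read 4.67, 4.76 and 4.68 in p63-/- prominences, without detection, and 7.86, 7.87 and 6.74 in p63+/- prominences. The 17 Hox genes had a mean level of 6.265, 6.363 and 5.653 in E13 p63-/- and of 6.772, 6.687 and 6.327 in E13 p63+/- prominences. Hoxb2 differed by -0.11 in p63-/- and rose by 1.63 in p63+/- prominences, and its difference between the genotypes did not pass. All 3 E13 p63+/- embryos lacked Xist, as did E13 p63-/- replicate 2, on which Hoxa5 was not detected. With Xist as a covariate the Hoxa5 genotype difference was -2.74 (limma, adjusted p = 0.000595).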

How the results depend on the processing

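The p63-/- count of 2344 was 652 with the 6 arrays alone, 4331 with array weights and between 782 and 3005 with an array left out. The p63+/- count of 2357 was 4069 with array weights, 701 with Xist as a covariate and between 917 and 2944 with an array left out, the lowest without E13 p63+/- replicate 1. Both counts were highest without E10 p63-/- replicate 3, an array of neither compared group. The genotype difference of 1 gene was 2 in the authors' processed values, 7 with array weights, 0 with the 12 arrays alone (limma, 295 genes at an unadjusted p under 0.05) and between 0 and 1 with an array left out, being 0 without any of the E13 p63+/- arrays because Hoxa5 then missed the detection filter (between 158 and 261 genes at an unadjusted p under 0.05). With the replicate number as a block the counts were 2420, 2419 and 1, and with a replicate block within each stage, added after the data were seen, the genotype difference had 1 call. Equal replicate numbers did not pair embryos across stages. The cause of the shifts was not tested.

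Of 136 called genes named by the rule or in the text, 129 kept their call with quantile normalization alone, 120 in the authors' processed values, 128 with the mean of probes, 64 with the 6 arrays alone, 131 with the replicate block and 134 with the Xist covariate. Without E12 p63-/- replicate 3 it was 79 and without E13 p63-/- replicate 1 it was 84. None of these genes changed sign in the 23 alternatives run for this contrast, though only 130 had a value under the strict filter. Hbb-y, not called, differed by 0.17 in the authors' processed values and passed there. The precision is limited by 3 arrays a group, and a fold of a gene with no detection in a group is only a bound.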

Other observations

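Of 20 imprinted growth genes, 3 rose and 2 fell in E13 p63-/- against E12 p63-/- prominences, with a median of 0.20. Rian, a noncoding RNA of the Dlk1 domain, read 6.94, 6.18 and 6.65 at E13 against 5.07, 5.55 and 5.75 at E12, and Nnat, a membrane protein of developing brain, fell by 1.05. Between 2 and 8 of the 20 passed with an array left out, 2 without E12 p63-/- replicate 3 or E13 p63-/- replicate 1. Of 16 Notch pathway genes 1 rose (6.25%), the ligand Jag1. It read 7.97, 7.93 and 7.59 at E13 against 6.56, 6.93 and 6.91 at E12 (1.03 ± 0.15, limma adjusted p = 0.000332).

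Among 21 genes of the immediate early and heat shock responses, 6 rose and 2 fell, and Egr1 had the largest called rise, by 1.65. Klf2, a flow-responsive factor of endothelium, read 8.88, 8.89 and 8.34 at E13 against 7.32, 7.97 and 7.67 at E12. In this list 4 passed without E12 p63-/- replicate 3 or E13 p63-/- replicate 1. Of 63 oxidative phosphorylation genes 1 rose and 5 fell, and between 1 and 6 passed with an array left out, 1 of them without E12 p63-/- replicate 3 or E13 p63-/- replicate 1. The member that rose was the muscle subunit Cox6a2. Of 52 cytosolic ribosomal protein genes 0 rose and 2 fell, with a median of 0.02, and between 0 and 3 passed with an array left out. Of 26 glycolysis and hypoxia genes 4 rose and 0 fell, and the number passing ranged between 0, without E12 p63-/- replicate 3, and 7, without E12 p63-/- replicate 2. Of 18 p53 targets 2 rose and 1 fell, and Phlda3 rose by 0.71, with 1 called without E12 p63-/- replicate 3 or E13 p63-/- replicate 1. Of 26 metallothionein, redox and detoxification genes 2 rose and 2 fell, with Gpx1, which fell, at 13.87, 13.99 and 13.98 at E13 against 14.95, 14.90 and 14.40 at E12. Without E13 p63-/- replicate 1, 1 of these 26 passed, and 2 without E12 p63-/- replicate 3. Of 17 cell cycle exit genes 3 rose and 1 fell, and the number passing with an array left out ranged between 0, without E13 p63-/- replicate 1, and 4. Of 12 genes of thyroid, pharyngeal endoderm and salivary gland 1 rose and 1 fell. The one that rose was Sox21, a factor of foregut and other epithelia, at 9.95, 9.45 and 9.13 at E13 against 8.29, 8.14 and 8.49 at E12 (1.2 ± 0.24, limma adjusted p = 0.00263). Of 6 melanocyte genes 1 rose, Dct, a call lost without E12 p63-/- replicate 1 or 3 or any of the 3 E13 p63-/- arrays. Over all genes 18.5% passed. The share was 38.1% of the immediate early and 23.5% of the cell cycle exit list. It was 16.7% of the p53, thyroid and melanocyte lists each, and 15.4% of the glycolysis and redox lists each. Of the oxidative phosphorylation and ribosomal protein genes 9.52% and 3.85% passed.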
